A study of Caenorhabditis elegans with 46 samples.

Results

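The genes described here carry a col symbol and a number, the gene class of the nematode cuticle collagens, and were followed in whole Caenorhabditis elegans worms that were fed or fasted as adults. Every probe set (the group of array probes that reads 1 transcript) with a single gene symbol made of col- and a number was taken, and a gene with several such probe sets was represented by the one with the highest mean over all 46 arrays. This gave 128 col genes among 17118 genes measured. The rule itself used no response to fasting or age, but the gene class was chosen with earlier results of these data known. The cuticle is a collagen-rich extracellular coat that the epidermis secretes at its apical surface and replaces at every larval moult. Its collagens are made as procollagens whose prolines are hydroxylated in the endoplasmic reticulum; the chains fold into trimers, are trimmed by proteases, and are crosslinked after secretion. Adults no longer moult, but their epidermis still transcribes collagen genes, and col messenger RNA is known to change with age and with stress.

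The time course held 22 arrays of wild-type N2 worms, 2 in each of 11 groups. Worms were fasted for 3, 6, 9, 12 or 18 h (adults of day 2 by the labels), 24 or 36 h (day 3) or 48 h (day 4), and worms kept fed were taken at 0 h (day 2), 24 h (day 3) and 48 h (day 4). The mutant set held 24 arrays of day 4 adults, 3 in each of 8 groups, from kgb-1, jun-1 and daf-16 mutants and from wild-type N2, each fasted and fed, all in the N2 background. The products of these genes are a kinase of the JNK family, a JUN transcription factor of the AP-1 type and a FOXO factor that acts below the insulin receptor. The sources used here give neither the lesion of a mutant nor the fasting time of the mutant set, and the study's design text counts 2 independent experiments for the time course and 3 for the mutants. All worms were fed until day 2 of adulthood, so 24 and 48 h are the times at which fasted worms have fed worms of their own age beside them.

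Values are the deposited linear intensities unless a log2 scale is named, and they had an offset of about 16 already in them, so that a reading near 16 lies at the floor. Differences are on the log2(intensity + 16) scale after quantile scaling within each set, are given with the standard error of limma's fit (SE, 2 arrays a group in the time course, 3 in the mutants), and understate the change of dim genes. A gene is called at an adjusted p under 0.05, by limma with Benjamini-Hochberg adjustment over all 22548 probe sets. Member means over all arrays ran from 17.4 to 5870 with a median of 72.9, and 53 of the 128 lay at 100 or above. The lowest correlation between arrays of 1 group was 0.986 among N2 time points, with 0.93 for the mutant set. In the mutant set replicate 1 had the lowest level of the col genes in 8 of 8 groups, so results there are also given without those 8 arrays, a choice made after this was seen. The jun-1 probe set read 19.2 ± 3.85 in fed jun-1 mutants and 705 ± 99.1 in fed N2 worms (SD, n = 3 each). The kgb-1 probe set, at 187 ± 33.3 in fed kgb-1 mutants and 174 ± 17.7 in fed N2 worms, does not check that label, because its place relative to the lesion is not known here, and the daf-16 probe set read 413 ± 96.1 in fed daf-16 mutants against 559 ± 36.6 in fed N2 worms. RNA came from whole worms, so fewer epidermal cells and less RNA per cell cannot be told apart in any result below.

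Most of the brighter col genes were lower in fasted worms, and none of the 128, each read by its brightest probe set, was called higher at 24 or 48 h or reached an unadjusted p under 0.05 in that direction in limma. Together the 128 col genes made up 0.209% and 0.329% of the summed intensity in the arrays fasted for 48 h, against 0.947% and 1.00% in the arrays fed for 48 h and 1.16% and 1.53% at the start. Against fed worms of the same age, 77 of 128 were lower after 48 h (14.1% of all probe sets were called lower), and 85 of 128 after 24 h (15.7% of all probe sets). The median difference of the col genes was -0.75 at 48 h and -0.65 at 24 h, with -0.02 and -0.03 over all probe sets. The fitted difference was negative for 118 of 128 at 48 h and for 122 of 128 at 24 h. Lower calls at both times were made for 72 col genes, at 24 h alone for 13 and at 48 h alone for 5, so 90 were lower at one time or both.

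Among the members with a mean of 100 or more, 48 of 53 were lower at 48 h and 47 of 53 at 24 h, where 23.6% and 24.6% of all probe sets that bright were called lower. Their medians were -1.78 at 48 h and -1.35 at 24 h, against -0.05 and -0.08 for all bright probe sets. Among the 75 dimmer members 29 were lower at 48 h with a median of -0.30, and 38 at 24 h with a median of -0.33. Of all probe sets, bright and dim, 14.1% and 15.7% were called lower at these times, so the dimmer members were also called more often. The bound of 100 was chosen with these values known, and readings near the floor leave little room for a fall. With the values as deposited, without quantile scaling, 69 were lower at 48 h (9.64% of all probe sets) and 71 at 24 h (12.3%). The count at 24 h was 42 without replicate 1 of the fasted arrays and 56 without replicate 2 of the fed arrays, and in a fit of all 46 arrays together 26 were lower at 48 h and 13 at 24 h.

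**Figure D1:**
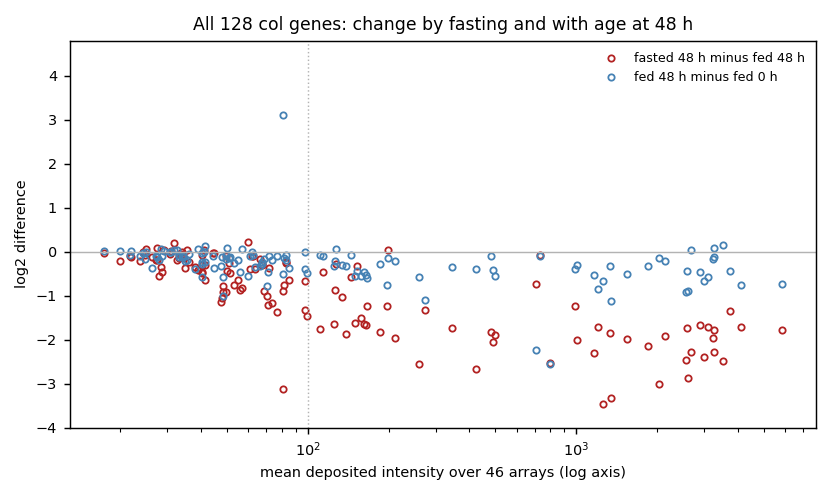
Log2 difference of each of the 128 col genes (vertical axis) against its mean deposited intensity over 46 arrays (horizontal log axis), for fasted 48 h minus fed 48 h (red) and fed 48 h minus fed 0 h (blue); the dotted line marks an intensity of 100. Right of that line the fasting differences have a median of -1.78 and the age differences one of -0.41, and the blue point at 3.11 is col-183.

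The largest falls with fasting were in col-101, col-159, col-183, col-143, col-160, col-103, col-98 and col-80, the 8 lowest called members at 48 h. The naming rule required arrays that did not overlap between fasted and fed worms, so that separation came with the choice and adds no support. The gene col-101 read 165 and 250.1 in worms fasted for 48 h and 2471 and 1887 in worms fed for 48 h. At 24 h it read 309.6 and 383 in fasted and 3146 and 3017 in fed worms. All 4 fasted arrays thus lay far below all 4 fed arrays, with a difference of -3.46 ± 0.26 at 48 h (adjusted p = 1.42e-07) and -3.08 ± 0.26 at 24 h (adjusted p = 6.17e-07).

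The neighbouring genes col-159 and col-160 fell together. In col-159 the fasted 48 h arrays read 91.3 and 103 and the fed 48 h arrays 990.4 and 994, a difference of -3.33 ± 0.37. In col-160 the fasted arrays read 313 and 443 and the fed arrays 2633 and 2754, a difference of -2.86 ± 0.36. At 24 h the differences were -3.63 for col-159 and -2.64 for col-160, and fasted and fed arrays of both genes were again apart. Both are read by probe sets whose names mark probes shared between similar transcripts, so their own signal cannot be told apart from that of close relatives.

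Further members of that group, named under the same condition, read as follows. For col-143 the fasted 48 h arrays read 291 and 503 and the fed 48 h arrays 2891 and 3396 (difference -3.02 ± 0.34). For col-103 the readings were 65.7 and 119.9 in fasted and 615 and 569 in fed worms (difference -2.68 ± 0.27). For col-98 they were 57.1 and 58.4 in fasted and 380.1 and 379 in fed worms (difference -2.55 ± 0.29). In each of the 3 genes every fasted array lay far below every fed array. At 24 h their differences were -2.29, -2.97 and -2.69, and col-124, at -1.90, also stood among the 8 lowest members at that time.

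Members with a known stage or a textbook role were spread over the whole range. The gene col-19, a marker of the adult epidermis that is switched on by the heterochronic factor LIN-29, read 229 and 382 in fasted and 1412 and 1428 in fed worms at 48 h. It differed by -2.29 ± 0.31 at 48 h (adjusted p = 4.57e-05) and -1.64 ± 0.31 at 24 h, with no overlap between fasted and fed arrays at either time. The genes col-12 and col-17 differed by -1.23 ± 0.29 and -1.35 ± 0.23 at 48 h and were called. The genes col-2 and col-40, both known for expression in the dauer larva, an arrested stage that adults do not enter, were not called and differed by -0.34 ± 0.14 (adjusted p = 0.0712) and 0.19 ± 0.11 (adjusted p = 0.216). The gene col-99 encodes a transmembrane collagen and not a cuticle component, and was lower by a small amount, -0.31 ± 0.10 (adjusted p = 0.0252). For col-120 the difference was -0.08 ± 0.08 with a 95% interval of -0.25 to 0.09. The genes col-7, col-10 and col-13 were not analysed here.

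In worms that stayed fed, most col genes shifted downward by 48 h, and few of the shifts passed the test in this fit. Between 0 and 48 h 4 members were lower (0.616% of all probe sets) and 1 was higher (1.17% of all probe sets). Between 0 and 24 h 1 was lower (0.177% of all probe sets) and 1 was higher (0.279%), and between 24 and 48 h again 1 was lower (0.00887%) and 1 was higher (0.0133%). The median of the members from 0 to 48 h was -0.20, with -0.02 over all probe sets, and the fitted difference was negative for 112 of 128. Among the 53 brighter members the median was -0.41 and 49 were negative, against -0.03 for all bright probe sets. The count of 4 was 2 without replicate 1 of the fed 48 h arrays, and 0 in a fit of all 46 arrays together.

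The 4 genes lower in fed worms at 48 h were col-80, col-20, col-39 and col-137. The gene col-80 read 2425 and 3338 at 0 h, 1312 and 1292 by 24 h and 442 and 528 by 48 h in fed worms, a fall at each step with no overlap between the 3 groups. The change from 0 to 48 h was -2.55 ± 0.31 (adjusted p = 0.000273). The gene col-20 read 1529 and 1898 at 0 h, 894 and 896 by 24 h and 348 and 348 by 48 h, and it was called over every fed interval, with -0.90 ± 0.19 from 0 to 24 h (adjusted p = 0.0452), -1.32 ± 0.19 from 24 to 48 h and -2.23 ± 0.19 over the whole time. The step to 24 h and the step from 24 to 48 h each lost the call when any 1 of the 4 arrays was left out. A reading of col-39 after 48 h of fasting lay at the floor. In fed worms the dim genes col-39 and col-137 changed by -1.01 ± 0.17 (adjusted p = 0.00347) and -0.57 ± 0.12 (adjusted p = 0.0162).

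Taking age and fasting apart at 48 h placed the 128 genes in a few classes. By far the most common was a fall with fasting at matched age and in fasted 48 h against fed 0 h, with no call for age, in 73 genes. A fall in all 3 comparisons was seen in col-80, col-20 and col-39, and col-137 was lower with age and in the sum but not with fasting at 48 h (-0.31 ± 0.12, adjusted p = 0.0574). A further 17 genes, among them col-120, col-142 and col-172, were called lower only in fasted 48 h against fed 0 h, where age and fasting are summed. No call in any of the 3 comparisons was made for 33 genes, and col-183 stood alone in a class of its own.

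**Figure D2:**
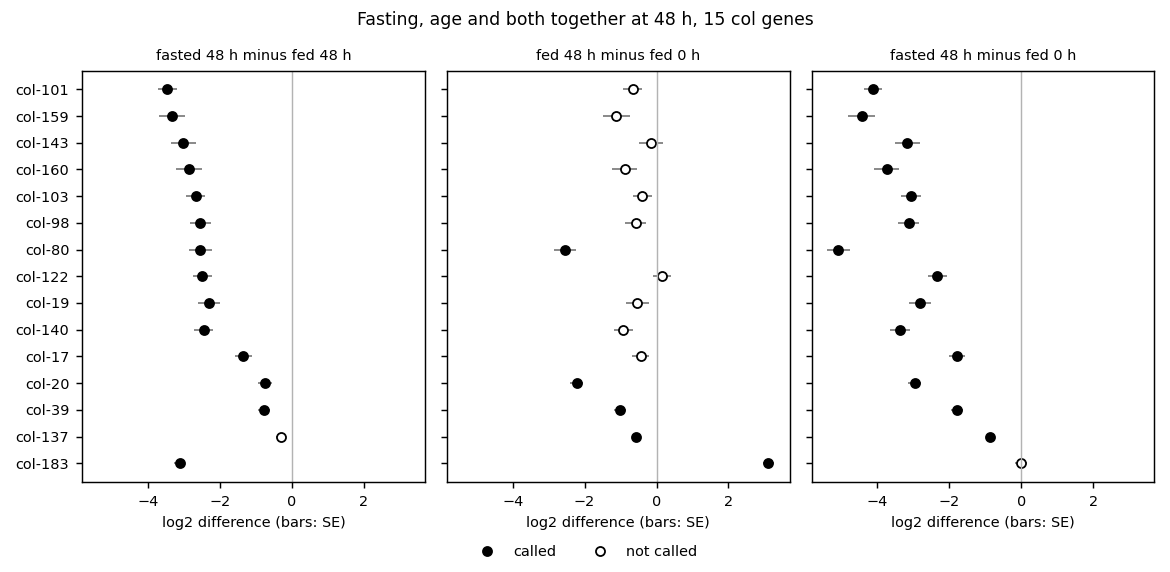
Log2 differences of 15 col genes (rows) for fasting at matched age (left), age in fed worms (middle) and both together (right) at 48 h; bars are the SE of limma's fit with 2 arrays a group, filled points are called. The rows are the lowest called members for fasting at 48 h and further genes named in the text, so filled points on the left come mostly with that choice. Most points in the middle are open, though most of these also lie below 0. The gene col-80 moves by -2.54 on the left and -2.55 in the middle, and col-183 moves by 3.11 with age and by -3.12 with fasting.

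Age and fasting weighed differently from gene to gene. In col-20 the age change of -2.23 was larger in size than the fasting change of -0.74 ± 0.19 (adjusted p = 0.00681), and fasted 48 h arrays read 198 and 267 against 348 and 348 in fed 48 h arrays. In col-80 the parts were -2.54 for fasting and -2.55 for age, and they summed to -5.09 ± 0.31. Its arrays fasted for 48 h read 76.1 and 83.0, against 442 and 528 in fed worms of that age and 2425 and 3338 at the start. In col-101 fasting gave -3.46 and age -0.67 (95% interval -1.22 to -0.12, adjusted p = 0.32). In col-122 fasting gave -2.49 ± 0.26 and age 0.15 ± 0.26, with 701 and 1395 in fasted and 5453 and 5779 in fed worms at 48 h. The 3 contrasts share arrays, since the fed 48 h pair enters the age change and the fasting change with opposite signs.

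The gene col-183 was the single member called higher in fed worms as they aged. In fed worms it read 30.9 and 47.0 at 0 h, 108 and 106 by 24 h and 541 and 417 by 48 h, so each fed group lay wholly above the one before. The change was 1.29 ± 0.16 by 24 h (adjusted p = 0.000531) and 3.11 ± 0.16 by 48 h (adjusted p = 2.37e-08). In fasted worms it read 37.6 and 42.2 after 3 h, 47.1 and 59.5 after 12 h, 47.4 and 65.1 after 24 h and 38 and 48.7 after 48 h. Fasted 48 h worms therefore differed by -0.01 ± 0.16 from fed worms at 0 h (95% interval -0.34 to 0.33), and by -3.12 ± 0.16 from fed worms of their own age. At 24 h the fasting difference was -0.98 ± 0.16 (adjusted p = 0.000222). The difference between the fasting changes at 48 and 24 h was -2.14 ± 0.22 (adjusted p = 0.000255), and col-183 was the single member for which it was called (0.0399% of all probe sets called lower, 0% higher), and the call was held without any 1 of the 8 arrays. Without replicate 2 of fasted 48 h, 3 members were called. Its size depends on the offset, since the starting values lie near the floor: with offsets of 1 and 50 the age change was 3.52 and 2.52, and the fasting change at 48 h was -3.52 and -2.53.

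The position next to col-183 on the chromosome is held by col-184, and this neighbour was not called with age. In fed worms col-184 read 3164 and 4307 at 0 h and 3644 and 4184 at 48 h, a change of 0.05 ± 0.24. In worms fasted for 48 h it read 609 and 981, a difference of -2.28 ± 0.24 from fed worms of that age. Of 12 pairs of members that are direct neighbours in the reference annotation, both were lower with fasting at 48 h in 7, 1 in 3 and neither in 2. Of all 128 members 77 were lower at that time, so many pairs lower in both come with that rate. The genes col-20 and col-39 each enter 2 pairs, and col-17, col-20, col-73, col-159 and col-160 have probe set names that mark shared probes. Whether neighbours fell together more often than other members was not tested. Besides col-159 with col-160 and col-183 with col-184, the pairs lower in both were col-39 with col-80, col-17 with col-20, col-20 with col-73, col-50 with col-51 and col-149 with col-150. In the pair col-39 and col-80 both genes also fell in fed worms, while col-20 fell with age and its neighbours col-17 and col-73 changed by -0.44 and -0.45, without a call.

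Followed against fed worms at 0 h, the fall began within hours and spread over 2 days. Members called lower numbered 5 at 3 h (0.674% of all probe sets), 17 at 6 h (1.1%), 46 at 9 h (3.25%) and 52 at 12 h (6.17%). They numbered 76 at 18 h (18.8%), 83 at 24 h (18.2%), 92 at 36 h (20.5%) and 94 at 48 h (18.6%). The median of the 53 brighter members was -0.46 at 3 h, -0.74 at 6 h, -0.84 at 9 h, -0.93 at 12 h, -1.18 at 18 h, -1.94 at 36 h and -2.18 at 48 h. All 8 comparisons use the same pair of fed 0 h arrays and hold age as well as fasting. The early counts rest on single arrays: the count at 3 h was 0 without replicate 2 of fed 0 h or replicate 1 of fasted 3 h and 2 without replicate 1 of fed 0 h, and that at 6 h was 4 without replicate 2 of fed 0 h, 9 without replicate 1 of fasted 6 h and 3 without its replicate 2. The count at 9 h was 19 without replicate 2 of fed 0 h and 21 without replicate 2 of fasted 9 h, that at 12 h was 22 without replicate 2 of fed 0 h and 25 without replicate 1 of fasted 12 h, and that at 24 h was 54 without replicate 1 of fasted 24 h. In a fit of all 46 arrays the counts were 0, 0, 1, 2, 14, 18, 43 and 60 in the same order of times.

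**Figure D3:**
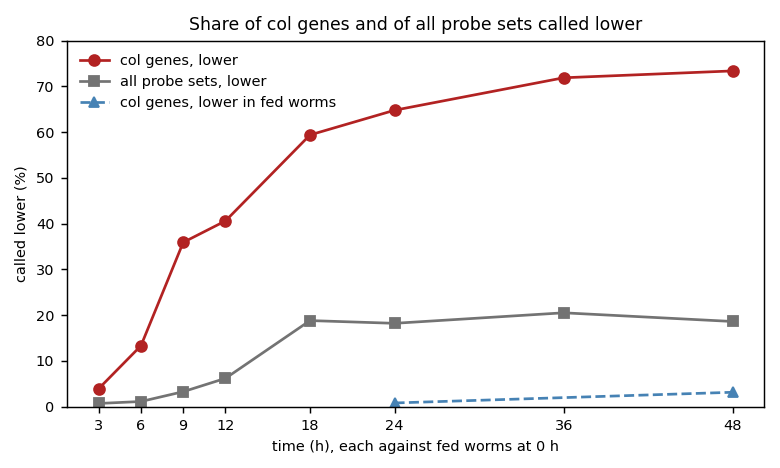
Percent of the 128 col genes (red) and of all 22548 probe sets (grey) called lower than fed 0 h worms after each fasting time (horizontal axis, hours), with the col genes called lower in fed worms at 24 and 48 h (blue, dashed). The red line passes from 3.91% at 3 h to 59.4% at 18 h and 73.4% at 48 h, while the blue line reaches 3.12%.

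Genes differed in when the fall set in. Of the 94 members lower at 48 h, the call held at all times from 3 h on in 4, from 6 h on in 13, from 9 h on in 26 and from 12 h on in 7. It held from 18 h on in 22, from 24 h on in 8, from 36 h on in 6 and at 48 h but not at 36 h in 8. An earlier call that was not held, as in col-45 at 3 h, does not count here. The 5 called at 3 h were col-80 at -1.84 ± 0.31, col-101 at -1.26 ± 0.26, col-103 at -1.20 ± 0.27, col-76 at -0.81 ± 0.17 and col-45 at -0.60 ± 0.14. In col-80 the arrays read 669 and 1031 after 3 h, 477 and 469.6 after 6 h, 235 and 229 after 9 h and 167 and 146 after 18 h of fasting. At 6 h both arrays lay below both fed 24 h arrays and between the fed 48 h arrays.

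The gene col-101 followed a similar course. It read 1340.4 and 1597 after 3 h, 1082 and 896 after 6 h, 525 and 634 after 9 h and 232 and 215 after 36 h, against 3026 and 3863 in fed worms at 0 h. Both arrays at 3 h lay below every fed array of the time course. The gene col-76 read 97.5 and 91.8 after 3 h, 84.7 and 88.0 after 6 h and 129 and 174 after 48 h, where the fed 0 h arrays read 155 and 194. Whether its 48 h arrays differed from those at 3 or 6 h was not tested. Its difference from fed 0 h was -0.81 ± 0.17 at 3 h and -0.56 ± 0.17 at 48 h, and both were called.

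In other bright genes the call held from 18 h on. The gene col-181 read 3608 and 3626 after 9 h, 3028 and 3032 after 18 h, 2037 and 2536 after 24 h, 1399 and 1419 after 36 h and 814 and 1300.3 after 48 h, against 4440.1 and 5389 in fed worms at 0 h. The gene col-140 read 2909 and 2540.4 after 9 h, 1050.4 and 1484 after 24 h and 301 and 539.9 after 48 h, against 3727 and 4810.1 in fed worms at 0 h. In both genes each 48 h array lay below each 24 h array, while fed 48 h worms read 5198 and 4940.3 for col-181 and 2307 and 2109.9 for col-140. Of the fall present at 48 h on the log2 scale, 50% was first passed at 3 h in 6 genes, at 6 h in 17, at 9 h in 23, at 12 h in 7, at 18 h in 21, at 24 h in 11 and at 36 h in 9 genes. The 6 genes at 3 h were col-76, col-78, col-104, col-138, col-151 and col-172. Their falls at 48 h were small, -0.23 to -0.75, so passing 50% of them early took little change. The steep fallers col-80, col-101 and col-159 passed 50% at 6, 9 and 9 h.

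**Figure D4:**
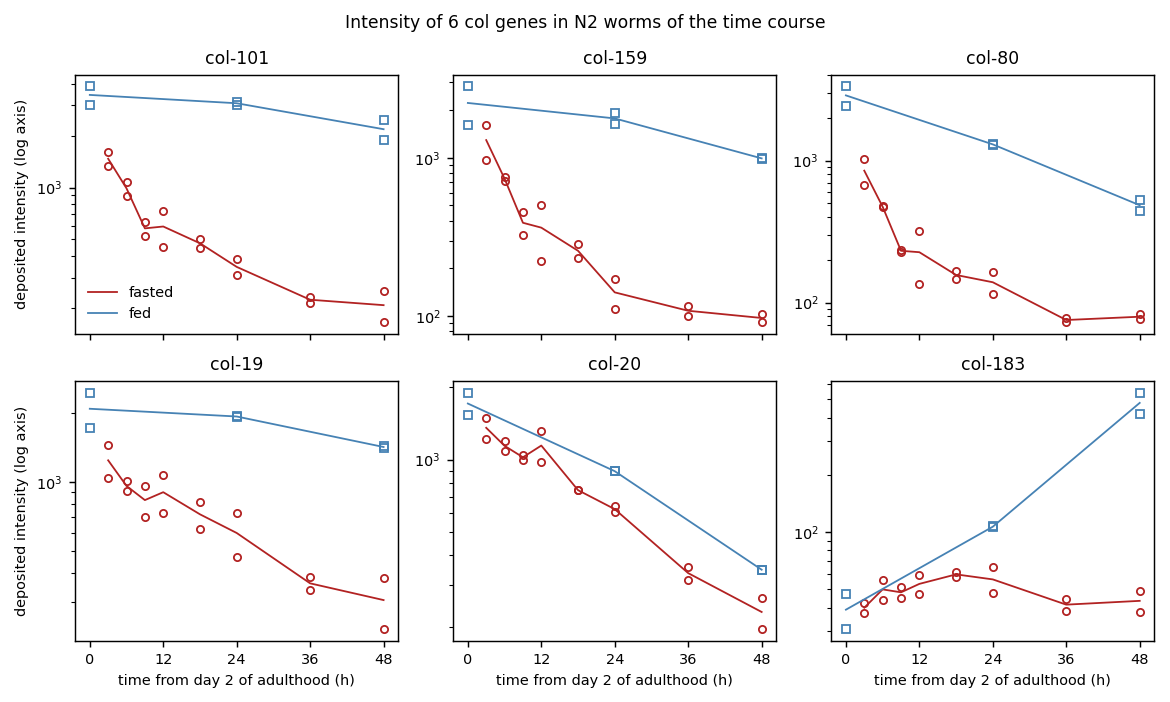
Deposited intensity (vertical log axis) of 6 col genes in each array of the time course against time from day 2 of adulthood in hours, for fasted worms (red circles) and fed worms (blue squares), with lines through the group means. The genes col-101, col-159 and col-80 fall within 9 h of fasting, col-19 falls by stages, col-20 falls in fed worms too, and col-183 climbs in fed worms to 541 and 417 at 48 h.

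Worms fasted for 36 h have no fed worms of their own age among the samples used here. Compared with fed 24 h worms, the fed group that carries the same day in the labels, 92 members were lower (18.2% of all probe sets), and compared with fed 48 h worms 79 were lower (16% of all probe sets). The lowest were col-159 at -4.04, col-80 at -4.0 and col-101 at -3.85 against fed 24 h worms. Against fed 48 h worms they were col-101 at -3.31, col-159 at -3.15 and col-183 at -3.11.

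No call in any comparison of the time course was made for 25 members. Of these 24 had a mean under 100, col-2, col-40 and col-121 among them. The exception was col-176, which read 586 and 632 in worms fasted for 48 h, 609.7 and 695 in worms fed for 48 h and 665 and 738 in fed worms at 0 h. All 22 of its arrays lay between 562 and 817. Its fasting difference was -0.07 ± 0.19 at 48 h with a 95% interval of -0.46 to 0.32, and its age difference was -0.10 ± 0.19 with an interval of -0.49 to 0.30.

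Because col genes resemble each other, the calls are also given by kind of probe set. Of the 128 members, 77 were read by a probe set named for a single transcript, 29 by one whose probes are all shared between transcripts (names ending in _s_at) and 22 by one with some cross-matching probes (names ending in _x_at). Lower calls at 48 h were made for 45 of the 77, 12 of the 29 and 20 of the 22, with medians of -0.49, -0.40 and -1.86. Of the 16 members with a further probe set, both were lower in col-119, col-147, col-160 and col-93, neither was called in 7, and the brightest alone was lower in col-149, col-150, col-157 and col-99. In that last group the further probe sets had means of 21.7, 26.1, 30.0 and 19.9, near the floor, where a fall has little room to show. The difference had the same sign in 14 of the 16 members. In col-147 the pair gave -2.0 and -2.06 and in col-160 -2.86 and -2.84. The second probe set of the remaining gene, col-121, was called higher with fasting by 0.66 (adjusted p = 0.0201), while its brightest one was at 0.22 ± 0.19 (adjusted p = 0.432).

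The genes that modify, trim and join collagen were looked at beside the col genes. Of 18 measured genes of collagen processing, 6 rose and 0 fell at 48 h of fasting, and 3 rose and 1 fell at 24 h (of all probe sets, 16% were called higher and 14.1% lower at 48 h, and 16.5% higher and 15.7% lower at 24 h). The gene pdi-2, whose product is the disulfide isomerase subunit of prolyl 4-hydroxylase, read 1823 and 1840.4 in fasted and 794 and 1063 in fed worms (difference 0.96 ± 0.20, adjusted p = 0.00142). The isomerase gene pdi-3 differed by 0.70 ± 0.10 and the hydroxylase gene dpy-18 by 1.02 ± 0.34. The astacin protease genes nas-37, which acts at the moult, and dpy-31, a procollagen C-proteinase, differed by 1.20 ± 0.20 and 0.65 ± 0.21, and tsp-15, a tetraspanin needed for crosslinking, by 0.43 ± 0.11. The median over the 18 genes was 0.07 at both times, with -0.02 at 48 h and -0.03 at 24 h over all probe sets.

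Of 15 regulators of cuticle genes, 6 rose and 2 fell at 48 h, and 5 rose and 2 fell at 24 h, with medians of 0.27 and 0.22, against those same shares of all probe sets. The lower ones were blmp-1, a zinc finger transcription factor, at -1.16 ± 0.14 (adjusted p = 1.65e-05) and nhr-23, a nuclear receptor of the moulting cycle, at -0.88 ± 0.24 (adjusted p = 0.0105). The higher ones included sma-9, sma-4, sma-3 and sma-2, which act in the BMP pathway that sets body size, at 1.44, 0.85, 0.71 and 0.46, with nhr-25 at 0.99 and elt-1 at 0.42. Of 45 other genes of the cuticle matrix (cuticlins and apical matrix proteins), 10 rose and 2 fell at 48 h and 15 rose and 3 fell at 24 h, with medians of 0.09 and 0.11. The zona pellucida protein gene noah-1 read 882 and 859 in fasted and 244 and 384 in fed worms (1.44 ± 0.31). The lipocalin gene lpr-3 differed by 1.26 ± 0.27, the cuticlin-like cutl-16 by 1.34 ± 0.36 and the fibrillin-like fbn-1 by 0.97 ± 0.30, and the 2 lower ones were cut-4 at -0.66 ± 0.16 and cutl-13 at -0.46 ± 0.13.

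Collagens of basement membranes form a separate class made by muscle and other tissues. The type IV chain gene let-2 was lower at 48 h, at -0.76 ± 0.20 (adjusted p = 0.00808), its partner emb-9 was at -0.98 ± 0.37 (adjusted p = 0.0553), and cle-1 was at -0.07 ± 0.09. Of 16 measured epidermis markers 4 rose (wrt-10, acs-20, vab-19 and che-14) and 2 fell (mup-4 and rdy-2) at 48 h. Of all probe sets 16% were called higher and 14.1% lower at that time. The summed intensity of the epidermis markers was 4109 to 4735 in fasted and 3957 to 4889 in fed worms at 48 h, so the groups overlapped. At 24 h it was 4264 to 4346 in fasted and 3662 to 4401 in fed worms, with 4 risen and 2 fallen (16.5% and 15.7% of all probe sets).

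Markers of other tissues moved too, and their counts stand beside the shares of all probe sets. Those shares were 16% higher and 14.1% lower at 48 h, and 16.5% higher and 15.7% lower at 24 h. Among 24 markers of germline and oocytes, 13 were lower and 0 higher at 48 h, with a sum of 47401 to 52489 in fasted and 71407 to 75484 in fed worms. At 24 h 17 of them were lower and 1 higher, with a sum of 38215 to 48054 in fasted and 67657 to 74234 in fed worms. Of 11 intestine markers 5 fell and 2 rose at 48 h (sum 14072 to 14492 in fasted and 20074 to 22187 in fed worms). Of 14 body muscle markers 3 fell and 2 rose (sum 14690.4 to 14935 in fasted and 14797 to 14825 in fed worms). Of 11 embryo markers 2 rose and 0 fell (sum 939 to 951 in fasted and 589 to 662 in fed worms). All values lie on the offset of 16, so no marker reads 0. The part of tissue makeup in the fall of the col genes was not tested.

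In the mutant set, whose arrays are separate from the time course, the col genes were again lower in fasted worms, with wide scatter between replicates. Summed over the 128 genes they made up 0.314% to 0.956% of the intensity in fasted and 1.04% to 2.05% in fed N2 worms. In N2 the median difference was -0.64 and 120 of 128 were negative, but 2 were called lower (2.17% of all probe sets). Array pairs of 1 replicate number shared much of their scatter, and with the number as a block 46 of 128 were lower (4.64% of all probe sets). Within pairs, 103 of 128 were lower in all 3 (28.5% of all probe sets). The medians were -0.53, -0.65 and -0.64 in pairs 1, 2 and 3. Without the replicate 1 arrays 19 were lower in N2, and no share of all probe sets was taken for this or for the mutant counts without them. Leaving out single arrays gave 0 without fed replicate 3 or fasted replicate 1, 1 without fed replicate 2 or either of fasted replicates 2 and 3, and 7 without fed replicate 1.

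The 2 called in N2 were col-183 and col-150. The gene col-183 read 34.7, 68.4 and 65.4 in fasted and 164, 157 and 179.5 in fed N2 worms, so every fasted array lay below every fed one, with a difference of -1.45 ± 0.34 (adjusted p = 0.0124, and 0.00086 with the block). The gene col-150 read 48.2, 95.7 and 97.0 in fasted and 186, 299 and 189 in fed N2 worms (difference -1.45 ± 0.42, adjusted p = 0.0474). The gene col-101, the lowest at 48 h of fasting against fed worms of that age, read 226, 1430.4 and 1223 in fasted and 1517, 4217 and 4051 in fed N2 worms. Its fasted arrays lay below all fed ones, with a difference of -1.98 ± 0.89 and an adjusted p of 0.266, which was 0.00359 with the block. With the block the lowest members were col-159 at -2.96, col-143 at -2.30 and col-160 at -2.21.

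In jun-1 mutants 10 were lower with fasting (2.13% of all probe sets), and 65 with the block (4.22%). The median was -0.85, and 93 of 128 were lower in all 3 pairs (16.7% of all probe sets). The lowest of the 10 were col-159, col-160 and col-143, at -4.01 ± 1.08, -3.51 ± 0.87 and -3.13 ± 0.76 (adjusted p = 0.046, 0.0261 and 0.022). For col-159 the arrays read 42.8, 113 and 292 in fasted and 793, 2049 and 7089 in fed jun-1 worms, in the order of the replicates. The count was 4 with the values as deposited (1.91% of all probe sets), 59 without the replicate 1 arrays, 18 without fed replicate 1, 4 without fed replicate 2, and 1 when fed replicate 3 or either of fasted replicates 1 and 2 was dropped.

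In daf-16 mutants 2 were lower (2.43% of all probe sets), col-150 at -1.68 ± 0.42 (adjusted p = 0.0215) and col-172 at -1.03 ± 0.24 (adjusted p = 0.0107), and 40 were lower with the block (4.32%). The median was -0.50, and 71 of 128 were lower in all 3 pairs (17% of all probe sets). The dim gene col-172 read 18.4, 21.2 and 19.2 in fasted and 25.5, 92.4 and 71.4 in fed daf-16 worms, where 2 of the fed arrays stood apart from the rest. The count was 6 without the replicate 1 arrays, 0 without fed replicate 2 or fed replicate 3, 1 without fasted replicate 1 and 9 without fasted replicate 2.

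In kgb-1 mutants 0 were lower (0.789% of all probe sets) in limma's fit, and 10 were lower with the block (1.42%). At an unadjusted p under 0.05, where no share of all probe sets was taken, limma gave 9 lower and 1 higher. The median was -0.41, and 85 of 128 were lower in all 3 pairs (17.7% of all probe sets). Without the replicate 1 arrays 9 were lower. The gene col-159 read 84.1, 409 and 254 in fasted and 393, 3557 and 2107 in fed kgb-1 worms, with a difference of -2.61 ± 1.08 and an adjusted p of 0.665, or 0.00482 with the block. With the block the 10 members lower in kgb-1 were col-93, col-95, col-101, col-124, col-125, col-143, col-146, col-147, col-159 and col-160. All 10 were lower in the other 3 genotypes too, and 0.958% of all probe sets were lower in all 4.

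**Figure D5:**
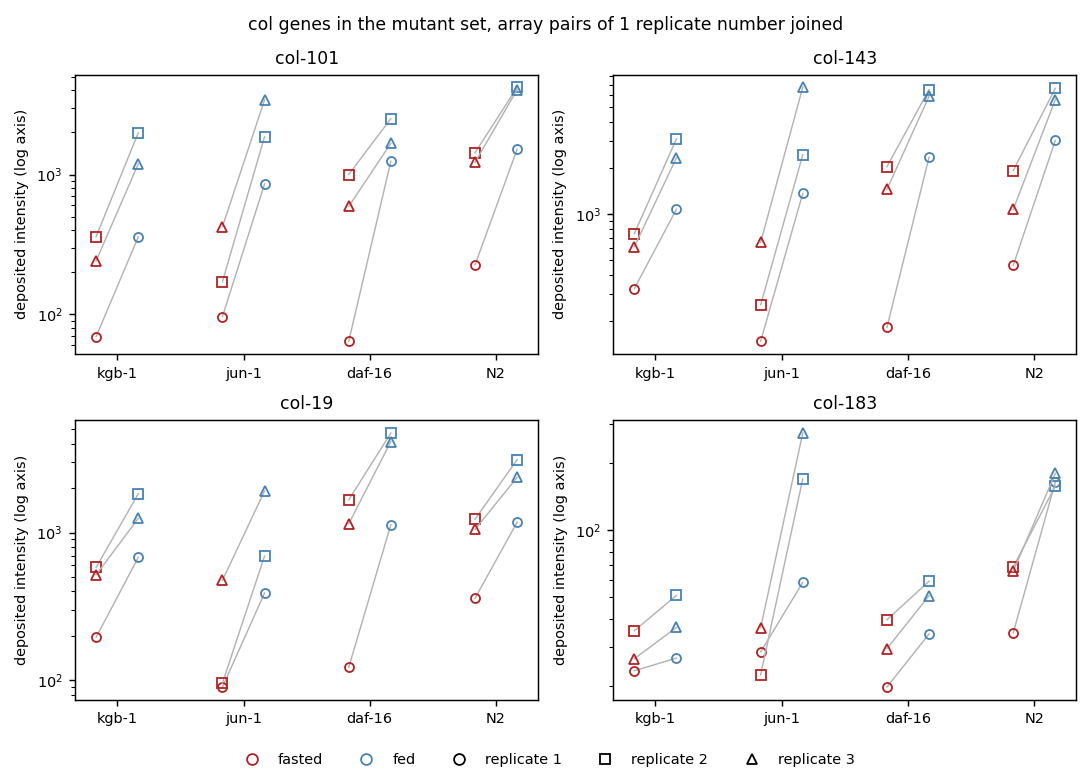
Deposited intensity (vertical log axis) of col-101, col-143, col-19 and col-183 in fasted (red, left) and fed (blue, right) worms of each genotype of the mutant set, with 1 symbol per replicate number and a line joining the fasted and fed array of 1 number. Each line runs lower on the fasted side, replicate 1 is low in most groups, and col-183 in fed kgb-1 and fed daf-16 worms lies below all fed N2 arrays.

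Whether the response to fasting differed from that of N2 was tested as an interaction, with the 6 N2 arrays shared by all 3 tests. No member was called for kgb-1, jun-1 or daf-16, with or without the block, where 0.00443%, 0.0177% and 0.00887% of all probe sets were called higher and 0.0266%, 0.16% and 0.102% lower. With the block these shares were 0.031%, 0.071% and 0.0443% higher and 0.0665%, 0.395% and 0.204% lower. At an unadjusted p under 0.05 there were 1 higher and 0 lower for kgb-1, 0 and 1 for jun-1 and 2 and 1 for daf-16 in limma, and with the block 3 and 0, 0 and 3, and 8 and 2. No share of all probe sets was taken at that unadjusted threshold. Without daf-16 fed replicate 1 the daf-16 interaction called 1. Without the replicate 1 arrays 0 were called in each of the 3. The intervals were wide without the block and narrower with it. For col-101 the difference from N2 was -0.19 in kgb-1 (95% interval -2.81 to 2.43, with the block -1.46 to 1.08), -1.01 in jun-1 (-3.63 to 1.61, with the block -2.28 to 0.26) and -0.23 in daf-16 (-2.85 to 2.39, with the block -1.50 to 1.04). For col-19 it was -0.05 in kgb-1 (-2.55 to 2.45, with the block -1.36 to 1.26), -0.67 in jun-1 (-3.17 to 1.83, with the block -1.98 to 0.64) and -0.63 in daf-16 (-3.13 to 1.87, with the block -1.94 to 0.68). For col-183 it was 1.18 in kgb-1 (0.17 to 2.19, with the block 0.38 to 1.97), -0.54 in jun-1 (-1.55 to 0.47, with the block -1.34 to 0.25) and 0.93 in daf-16 (-0.08 to 1.94, with the block 0.13 to 1.72). The kgb-1 interval of col-183 lay above 0 without and with the block, and the daf-16 interval with the block. With the block its adjusted p in limma was 0.485 in kgb-1 and 0.589 in daf-16. Fed kgb-1 and fed daf-16 worms already read near the floor for col-183, as given below, which left little room for a fall with fasting.

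Fed mutants were also set against fed N2 worms, whose 3 arrays all 3 comparisons share. In fed kgb-1 mutants 1 member was lower (1.46% of all probe sets), col-183, and 13 were lower with the block (3.79%), col-159, col-98 and col-101 among them. The gene col-183 read 26.7, 51 and 36.6 in fed kgb-1 mutants, 58.3, 169.5 and 272 in fed jun-1 mutants, 34.2, 59.0 and 50.8 in fed daf-16 mutants and 164, 157 and 179.5 in fed N2 worms. All fed kgb-1 and fed daf-16 arrays lay below all fed N2 arrays, while the fed jun-1 arrays spanned the N2 values. Summed levels of 3 other lists also lay lower in fed kgb-1 mutants, with no overlap between groups for the first 2 of them. The epidermis markers summed to 3041 to 3302 in fed kgb-1 and 3851 to 4069 in fed N2 worms, with 1 of 16 called lower. This was not particular to kgb-1, since their sum in fed jun-1 worms, 3024 to 3629, also lay wholly below that of fed N2 worms. The basement membrane collagens summed to 508 to 803 in fed kgb-1 and 1374 to 2273 in fed N2 worms, with 1 of 3 called lower, or 2 with the block. The body muscle markers summed to 10352 to 14736 in fed kgb-1 and 14377 to 24344 in fed N2 worms, with 0 of 14 called, or 5 lower with the block. Not every list lay lower. The germline markers summed to 68906 to 81192 in fed kgb-1 and 60137 to 70895 in fed N2 worms. The collagen processing genes summed to 14518 to 18020 in fed kgb-1 and 12953 to 16756 in fed N2 worms. The part of these lists in the col results was not tested.

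For col-183 the difference from fed N2 was -1.78 ± 0.34 in kgb-1 (adjusted p = 0.00572), -1.55 ± 0.34 in daf-16 (adjusted p = 0.0434) and -0.04 ± 0.34 in jun-1 (adjusted p = 0.994).

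The daf-16 call, the single one in that comparison (0.408% of all probe sets), was lost when any 1 of its 6 arrays was left out, with an offset of 50 (adjusted p = 0.0581), without the intensity trend and among brighter probe sets only, and with the block (0.767% of all probe sets) it had an adjusted p of 0.00371. The kgb-1 call was lost without kgb-1 fed replicate 1. Without all replicate 1 arrays the counts were 1 in fed kgb-1, 0 in fed jun-1 and 1 in fed daf-16 mutants. In fed jun-1 mutants 0 members were called without the block (1.01% of all probe sets lower) and 0 with it (2.05%). At an unadjusted p under 0.05 limma gave 2 lower and 0 higher members, or 10 and 0 with the block. No share of all probe sets was taken at that unadjusted threshold. The medians of the 128 members were -0.52 in fed kgb-1, -0.24 in fed jun-1 and -0.09 in fed daf-16 mutants, against 0.03, 0.02 and 0.01 over all probe sets.

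Beside these mutant set results, markers of other tissues moved with fasting. Of 14 body muscle markers 1 fell in N2, 0 in kgb-1, 2 in jun-1 and 3 in daf-16, and with the block 6, 2, 10 and 10 fell, with 0 risen. Of all probe sets 2.17%, 0.789%, 2.13% and 2.43% were called lower in that order. With the block these shares were 4.64%, 1.42%, 4.22% and 4.32%. The sum of the muscle markers was 10122 to 16654 in fasted and 14377 to 24344 in fed N2 worms. In jun-1 it was 7870.0 to 9985 in fasted and 14566 to 17844 in fed worms. The 11 intestine markers had a sum of 7516 to 7965 in fasted and 16322 to 17241 in fed N2 worms, with 2 fallen and 0 risen. Of 16 epidermis markers 1 rose and 0 fell in N2, with a sum of 3281 to 3773 in fasted and 3851 to 4069 in fed worms, and of 24 germline markers 0 were called in N2, or 2 lower with the block. The type IV chain gene let-2 was lower in fasted N2 worms, at -1.65 ± 0.44 (adjusted p = 0.0259), and blmp-1 was at -0.98 ± 0.27 (adjusted p = 0.0341). The part of these tissues in the level of the col genes was not tested.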

How the data were processed

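Total RNA of whole worms was extracted with Trizol, labelled from 100 ng in 2 cycles and hybridised to 1-colour Affymetrix arrays, per the labels' protocols. The authors deposited linear intensity values per probe set, made with PLIER, as named without a version in the list of tools per the submitters' processing notes. Every value lies above 16. Medians of single arrays were 60.1 to 84.0 (time course) and 60.2 to 85.4 (mutants), and precision is limited by how few arrays each group has.

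Of 22625 probe sets, 77 controls were left out and 22548 tested. Intensities plus an offset of 16 were put on the log2 scale, quantile scaled within each set, and fitted in limma 3.58.1 (R 4.3.3) with 1 coefficient per group and an intensity trend. Tests were two-sided with Benjamini-Hochberg adjustment, and the fits were tested on simulated data. Gene names came from the platform annotation, and all 128 matched the reference gene table under the same symbol. Replicates are independent experiments by the design text, and where numbers mark shared handling is not stated. In the mutant set, deviations from the group means correlated at 0.157 to 0.739 between arrays with the same number, and 24 of 24 arrays correlated best with their own number, which was read as pairing by number, and blocked values are given there.

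Genes were named by rule: the 8 lowest and 8 highest called, non-overlapping members of the main comparisons, the 3 lowest and highest called of the others, and members with a textbook role. Genes given as examples of a class, neighbours or late falls, and col-76, were chosen after their values were seen. The members and gene lists were chosen with earlier results of these data known. Alternatives were other offsets, deposited values without scaling, no trend, brighter probe sets only, all arrays in 1 fit, the replicate block, single-transcript probe sets only, and each array left out in turn.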

Additional observations from a re-analysis of the deposited data

Results flagged for a closer look

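The fasting change of col-183 at 48 h minus that at 24 h was -2.14 on the log2 scale (adjusted p = 0.000255, limma). It stood out because the test of the difference between the matched-age times called it, alone among the 128 col genes. The fasted 48 h arrays lay below the fed 48 h arrays and the fasted 24 h arrays below the fed 24 h arrays, 2 against 2 at each time. The call was lost in a fit of all 46 arrays together, where the difference was -2.10.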

How the results depend on the processing

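No result changed direction under the alternatives run. With an offset of 1, lower calls were 0 from fed 0 to 24 h, 3 at 3 h and 1 in N2 of the mutant set, and without the intensity trend they were 0 from fed 0 to 24 h and 1 in that N2 comparison. The fed daf-16 call went to 0 with an offset of 50, without the trend and among brighter probe sets. Brighter probe sets alone, where fewer members were tested, gave 2 for age at 48 h, 55 for fasting at 24 h, 29, 55, 57 and 56 at 9, 24, 36 and 48 h against fed 0 h, 60 for 36 h against fed 24 h, 4 in jun-1 and 1 in daf-16. All 46 arrays in 1 fit gave 0 lower for each fed interval, 0 higher from fed 0 to 24 h, 0 for the difference between the fasting changes, 13 and 26 for fasting at 24 and 48 h, 0, 0, 1, 2, 14, 18, 43 and 60 from 3 to 48 h against fed 0 h, 39 and 16 for 36 h against fed 24 and 48 h, and 12, 40 and 10 in N2, jun-1 and daf-16; the cause was not tested. Single-transcript probe sets alone, fewer by construction, gave 0 for age at 24 h and between 24 and 48 h, 49 and 45 for fasting at 24 and 48 h, 28, 32, 47, 49, 54 and 55 from 9 to 48 h against fed 0 h, and 52 and 47 for 36 h against fed 24 and 48 h. Values as deposited gave 4 in jun-1. Without the replicate 1 arrays of the mutant set, chosen after seeing the data, counts were 19, 9, 59 and 6 in fasted N2 and the kgb-1, jun-1 and daf-16 mutants.

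With the replicate block, counts were 46, 10, 65 and 40 in fasted N2 and the kgb-1, jun-1 and daf-16 mutants and 13 in fed kgb-1, and no other call on the mutant comparisons changed in number. In the time course the number may mark shared handling, a hint from the data and not from the design: same-number deviations correlated at 0.290 to 0.620 and 22 of 22 arrays correlated best with their own number. With 2 arrays a group the deviations of replicates 1 and 2 are mirror images, so the 22 arrays are not 22 separate observations. There the block gave 2, 17 and 2 lower for age at 24 h, at 48 h and between them, 2 for the difference between the fasting changes, and 13 and 46 at 3 and 6 h.

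Leaving out 1 array at a time gave 42 to 82 for fasting at 24 h, 66 to 74 at 48 h, 2 to 4 for age at 48 h, 0 for age at 24 h and between 24 and 48 h, and 1 to 3 for the difference between the fasting changes. Against fed 0 h the ranges were 0 to 4, 3 to 18, 19 to 35, 22 to 48, 53 to 76, 54 to 87, 77 to 94 and 75 to 94 from 3 to 48 h, and for 36 h they were 79 to 83 against fed 24 h and 67 to 69 against fed 48 h. In the mutant set they were 0 to 7 in N2, 0 in kgb-1, 1 to 18 in jun-1, 0 to 9 in daf-16, 0 to 1 in fed kgb-1 and 0 in fed daf-16. Of 743 values of single genes under these alternatives 653 stayed on their side of the threshold and 90 lost the call, 55 of them with 1 array left out. Dim members near the offset limit what a fall can show.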
